A study of Homo sapiens with 20 samples.

Results

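The 10 genes described here encode ligands of activating receptors of natural killer (NK) cells: MICA, MICB, ULBP1, ULBP2, ULBP3, RAET1E and RAET1G, which bind NKG2D; PVR and NECTIN2, which bind DNAM-1; and NCR3LG1, which binds NKp30. They were listed by the receptor they bind, out of 78932 gene identifiers, but with earlier results of these data known. Of the 10, 7 were among the 20957 genes that could be tested. Their mRNA was measured in OPM2, a human multiple myeloma cell line, by strand-specific poly(A) RNA sequencing of 20 libraries. There were 2 independent replicates of each of 10 groups: DMSO, the vehicle, and 3 inhibitors of histone deacetylases (HDACs) after 2, 5 and 20 h. The dose was 10 nM for panobinostat, 10 nM for romidepsin and 100 nM for ricolinostat, although the treatment field of the ricolinostat samples reads 10 nM. All groups are the same unmodified line grown in 1 medium, so that every value below comes from a single line. No harvest time is given for DMSO, and time in culture and inhibitor therefore cannot be told apart in any comparison with it.

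NKG2D, DNAM-1 and NKp30 sit on NK cells, and NKG2D and DNAM-1 also on many T cells, and they trigger killing when they meet their ligands on another cell. MICA and MICB are membrane proteins related to MHC class I, and the ULBP and RAET1 proteins are more distant relatives, several of them held by a lipid anchor. They are known to appear on stressed, infected or malignant cells, and MICA and MICB can also be cut from the surface, after which the soluble form blocks NKG2D. PVR (CD155) and NECTIN2 (CD112) are adhesion molecules that bind DNAM-1 but also the inhibitory receptors TIGIT and, for PVR, CD96. Myeloma cells are known targets of NK cells, and acetylation of histones at the promoters of several of these genes is known to affect their transcription.

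Levels are CPM, a library's counts scaled to a common total after TMM normalization. Each change is a log2 fold change with its SE, n = 2 libraries in a group, tested by quasi-likelihood in edgeR, with the Benjamini-Hochberg adjustment made over every gene tested. A gene is said to rise, fall, or be higher or lower only where this adjusted p was under 0.05. Total counts per library ran from 17264640 to 29088868. The replicates of each group differed by more than counting noise, with a chi-square per degree of freedom of 2.33 to 5.92. It was highest with panobinostat at 2 h (5.92) and ricolinostat at 5 h (3.99), and the other groups ran from 2.33 to 2.87. All 10 groups shared 1 estimate of the spread, so that the SE may be too small in comparisons with those 2 groups. All 12 plasma cell and myeloma markers reached 1 CPM in each of the 10 groups, but their summed level went from 13500 and 13400 CPM in DMSO to 1980 and 1990 CPM with panobinostat and 3620 and 3670 CPM with romidepsin at 20 h. The 17 T and NK cell markers summed to between 3.33 and 12.2 CPM over all libraries, with CD96 the highest of them in each group except panobinostat at 20 h, where CD226 was. KLRK1, which encodes NKG2D, and NCR1 had 0 counts in DMSO and at 20 h with panobinostat and with ricolinostat, but both had counts at 20 h with romidepsin, where NCR2, GZMB, CD3D and CD8A were at 0 and the 17 markers summed to 8.82 and 9.05 CPM. The 6 stromal markers summed to 0 and 0.0745 CPM in DMSO and to 37.1 and 35.4 CPM with panobinostat and 27.0 and 29.2 CPM with romidepsin at 20 h, nearly all of it COL1A1, with LUM and COL3A1 at 0 with panobinostat and COL1A2 and PDGFRB at 0 with romidepsin. The 8 myeloid markers went from 0.593 and 0.745 CPM in DMSO to 7.67 and 7.82 CPM with panobinostat and 3.12 and 2.71 CPM with romidepsin, S100A8 and S100A9 at 0, and the 5 epithelial markers stayed at or below 0.391 CPM. The part of these markers in the results was not tested.

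At 20 h with panobinostat 5 of the 7 tested ligand genes were higher and 2 lower than in DMSO, and with romidepsin at 20 h the counts were also 5 and 2, while ricolinostat at its 100 nM gave 2 and 2. Over all genes tested, 40.8% were higher and 32.3% lower with panobinostat at 20 h, 38.6% and 29.9% with romidepsin, and 14.7% and 16.4% with ricolinostat. Changes were thus common across the whole transcriptome, and the counts are to be read against those shares. At 5 h panobinostat also gave 5 higher and 2 lower, where 30.7% and 25.9% of all genes were, romidepsin 3 and 1 against 13.0% and 16.5%, and ricolinostat 3 and 1 against 18.8% and 15.3%. At 2 h the counts were 2 and 1 with panobinostat, 1 and 0 with romidepsin, and 2 and 2 with ricolinostat. The shares of all genes at 2 h were 20.8% and 18.1%, 3.55% and 4.62%, and 16.9% and 14.5%. These 9 comparisons share the same 2 DMSO libraries. The median change of the 7 genes at 20 h was 2.19, 1.85 and 0.70 for panobinostat, romidepsin and ricolinostat, beside medians over all genes of 0.25, 0.22 and 0.03. The filter on low counts had removed the 3 least abundant members, so the 7 do not stand for all 10.

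**Figure D1:**
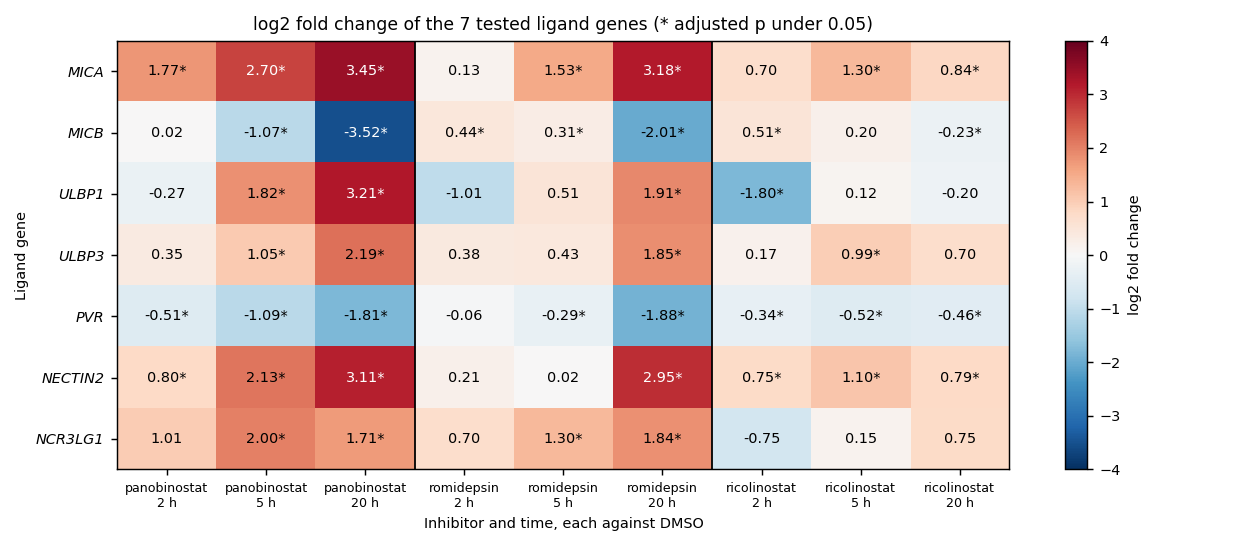
log2 fold change of each tested ligand gene (rows) against DMSO for each inhibitor and time (columns); red is higher, blue lower, and a star marks an adjusted p under 0.05. MICA and NECTIN2 carry values from 2.95 to 3.45 at 20 h with panobinostat and with romidepsin, and MICB and PVR are negative there.

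Scaling matters for such broad changes. With library size alone in place of TMM, the median over all genes moved from 0.25 to 0.56 with panobinostat and from 0.22 to 0.46 with romidepsin at 20 h, and at 5 h from 0.12 to 0.25 and from 0.02 to 0.14. The share of called genes that were higher then moved from 55.8% to 65.9% with panobinostat at 20 h, from 43.4% to 65.6% and from 44.1% to 71.3% with romidepsin at 2 and 5 h, and from 47.3% to 66.2% with ricolinostat at 20 h. Under that scaling the 7 genes kept their directions at 20 h with panobinostat and romidepsin: MICB stood at -3.22 and -1.77, PVR at -1.51 and -1.64, and MICA at 3.75 and 3.42. As the RNA is from bulk cultures, fewer cells expressing a gene and less of its mRNA per cell cannot be told apart.

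MICA and MICB, the 2 MHC class I-related ligands, moved in opposite directions with panobinostat at 5 and 20 h and romidepsin at 20 h. With ricolinostat at 20 h they did too, but both calls were lost in some alternative fits. With romidepsin at 5 h both were higher than in DMSO. MICA (ENSG00000204520) lies on chr6:31399784-31415315 and MICB (ENSG00000204516) on chr6:31494881-31511124, both on the plus strand of GRCh38 as GENCODE 29 annotates it, inside the MHC. The proximal promoters of both are shown because the genes share most of their upstream sequence while their mRNAs diverged. The sequences are from RefSeq (GRCh38.p14), plus strand, chr6:31403345-31403578 for MICA and chr6:31497895-31498085 for MICB, and each stops just before the GENCODE 29 exon at which the RefSeq transcript begins. GENCODE 29 also has an exon further upstream for each gene, so that both stretches lie within the annotated gene, between exons, and are upstream of the RefSeq start only. Capitals mark the heat shock element core GAANNTTC and the GC box GGGCGG, on either strand.
MICA: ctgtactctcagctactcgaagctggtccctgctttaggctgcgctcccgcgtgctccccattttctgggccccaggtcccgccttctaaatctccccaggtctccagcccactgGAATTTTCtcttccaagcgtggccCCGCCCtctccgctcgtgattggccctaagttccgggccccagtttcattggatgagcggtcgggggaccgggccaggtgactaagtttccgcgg
MICB: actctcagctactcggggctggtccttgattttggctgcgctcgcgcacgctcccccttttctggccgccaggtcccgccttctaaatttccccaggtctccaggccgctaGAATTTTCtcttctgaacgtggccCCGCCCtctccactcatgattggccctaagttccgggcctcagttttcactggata
Over the full promoter entries, 86.6% of 284 aligned bases were identical between MICA and MICB, whereas the other 44 pairs of the 10 promoters ran from 48.1% to 66.4%. Both promoters held the same heat shock element match, GAATTTTC, starting at position -135 from the RefSeq start in MICA and at -139 in MICB. GAANNTTC occurred in 6.77% and the GC box in 45.0% of 35116 promoters in the table. A match describes the letters only.

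MICA was lowest in DMSO and highest at 20 h with panobinostat. It stood at 1.27 and 1.01 CPM in DMSO, and with panobinostat at 3.68 and 4.06 CPM at 2 h, 7.46 and 7.34 CPM at 5 h and 11.5 and 13.3 CPM at 20 h. No panobinostat library overlapped DMSO, and the rises were 1.77 ± 0.26 (adjusted p = 4.8e-09), 2.70 ± 0.24 (3.7e-18) and 3.45 ± 0.23. With romidepsin MICA was at 1.23 and 1.25 CPM at 2 h, within the DMSO range, then at 2.72 and 3.90 CPM at 5 h and 10.2 and 10.4 CPM at 20 h. The romidepsin rise was 1.53 ± 0.26 at 5 h (adjusted p = 1.1e-06) and 3.18 ± 0.23 at 20 h (adjusted p = 1.9e-23), after 0.13 ± 0.31 at 2 h (adjusted p = 0.92). With ricolinostat MICA was at 1.66 and 2.02 CPM at 2 h, 2.73 and 2.85 CPM at 5 h, and 1.97 and 2.09 CPM at 20 h. Against DMSO these were 0.70 ± 0.29 at 2 h (adjusted p = 0.051), and MICA was higher at 5 h by 1.30 ± 0.27 (adjusted p = 3.5e-05) and at 20 h by 0.84 ± 0.29 (adjusted p = 0.016). The latter call was lost without DMSO replicate 2 (0.66, adjusted p = 0.19) and without either ricolinostat library (0.87 and 0.78, adjusted p = 0.058 and 0.098). In the order of the 10 groups, panobinostat at 20 h was highest, then romidepsin at 20 h and panobinostat at 5 h, all 3 apart from each other, and DMSO was lowest, overlapping romidepsin at 2 h.

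MICB was the most abundant NKG2D ligand gene in DMSO, at 33.3 and 37.5 CPM, and the lowest of its level order was panobinostat at 20 h. With panobinostat it was at 38.3 and 34.0 CPM at 2 h, which overlapped DMSO (0.02 ± 0.09, adjusted p = 0.88), then at 16.5 and 17.2 CPM at 5 h and 2.86 and 3.28 CPM at 20 h. The falls were -1.07 ± 0.09 at 5 h (adjusted p = 3.6e-18) and -3.52 ± 0.12 at 20 h (adjusted p = 1.1e-47), an 11.5-fold difference. With romidepsin MICB was higher than in DMSO first and lower later: 45.7 and 50.2 CPM at 2 h, 41.2 and 47.2 CPM at 5 h, and 8.86 and 8.79 CPM at 20 h. These were rises of 0.44 ± 0.08 (adjusted p = 6.1e-05) and 0.31 ± 0.08 (adjusted p = 0.0018), and a fall of -2.01 ± 0.10 (adjusted p = 7.9e-34). The rise at 5 h was lost without DMSO replicate 1 (0.22, adjusted p = 0.11) or without romidepsin replicate 2 (0.20, adjusted p = 0.17). With ricolinostat MICB was at 48.5 and 52.7 CPM at 2 h, above both DMSO libraries, at 37.0 and 44.9 CPM at 5 h, and at 31.7 and 28.9 CPM at 20 h. The change was 0.51 ± 0.08 at 2 h (adjusted p = 1.6e-07), 0.20 ± 0.08 at 5 h (adjusted p = 0.051) and -0.23 ± 0.09 at 20 h (adjusted p = 0.036). The last call was lost with library size alone (-0.12, adjusted p = 0.31), with DESeq2 (-0.25, adjusted p = 0.057), without DMSO replicate 2 (-0.15, adjusted p = 0.38) and without ricolinostat replicate 2 (-0.18, adjusted p = 0.25).

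**Figure D2:**
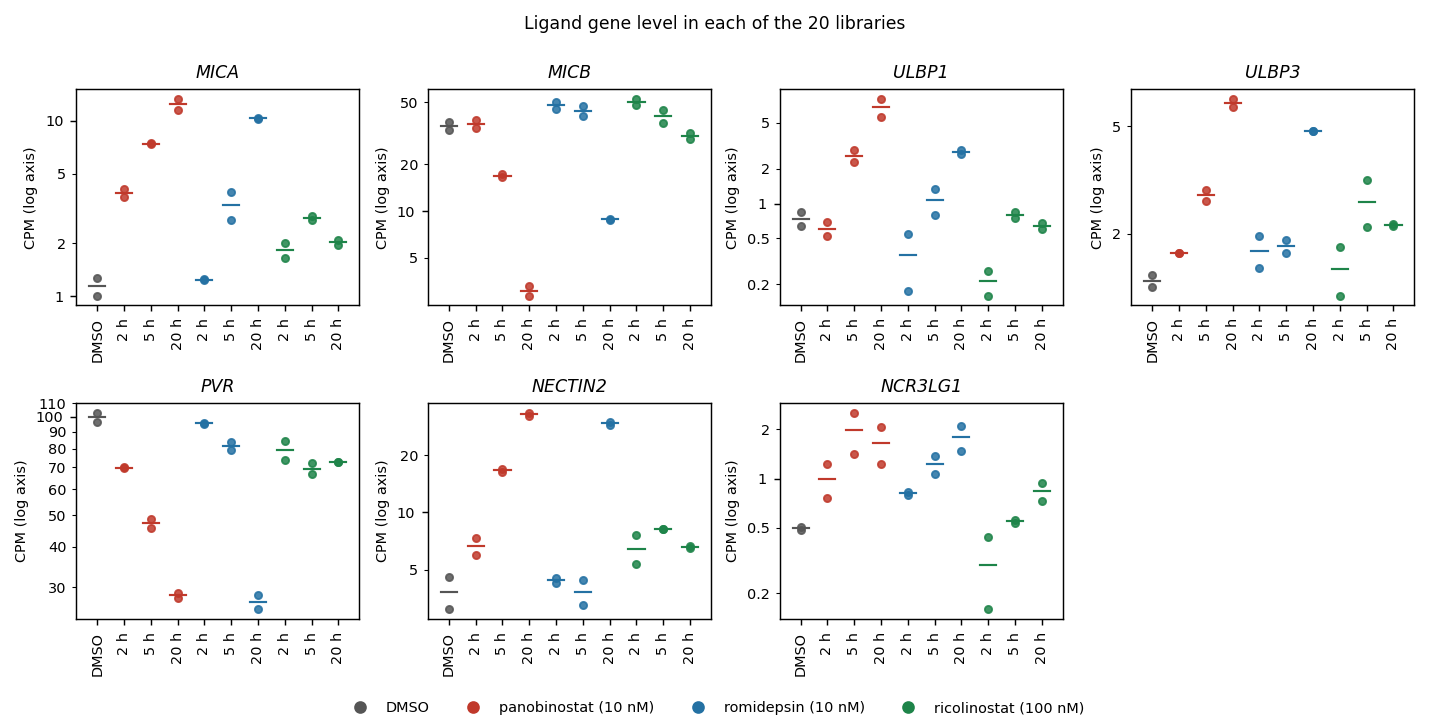
Level of each tested ligand gene in CPM (log axis) in the 20 libraries; each point is 1 library, each short line the mean of 2, and colours mark DMSO and the inhibitors. MICA, ULBP1, ULBP3 and NECTIN2 are highest at 20 h with panobinostat, and MICB is lowest there at 2.86 and 3.28 CPM.

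Within this pair MICA went from the minor to the major share. MICA made up 3.67% (95% exact binomial interval 2.49 to 5.20) and 2.61% (1.73 to 3.78) of MICA and MICB counts in the DMSO libraries. With panobinostat its mean share was 9.72% ± 1.34 (SD, n = 2) at 2 h, 30.5% ± 0.937 at 5 h and 80.1% ± 0.0899 at 20 h, and with romidepsin 2.52% ± 0.135, 6.91% ± 1.02 and 53.8% ± 0.573. With ricolinostat it was 3.51% ± 0.272, 6.42% ± 0.631 and 6.29% ± 0.617. The share within a library does not depend on its scaling, and the intervals cover counting error only. Transcripts of MICA and MICB in GENCODE 29 shared no identical stretch of 100 bases, so that reads of that length could be told apart in the annotated sequence. HCP5, a noncoding gene, overlaps MICA on the same strand, and how the authors counted reads in shared exons is not given in the sources used here. HCP5 was at a mean of 1.80 CPM in DMSO, 3.39 CPM with panobinostat and 5.83 CPM with romidepsin at 20 h. MICB-DT, a noncoding gene before the start of MICB that was picked out after its values were seen, had 52 and 44 counts in DMSO, 5 and 7 with panobinostat and 25 and 16 with romidepsin at 20 h.

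**Figure D3:**
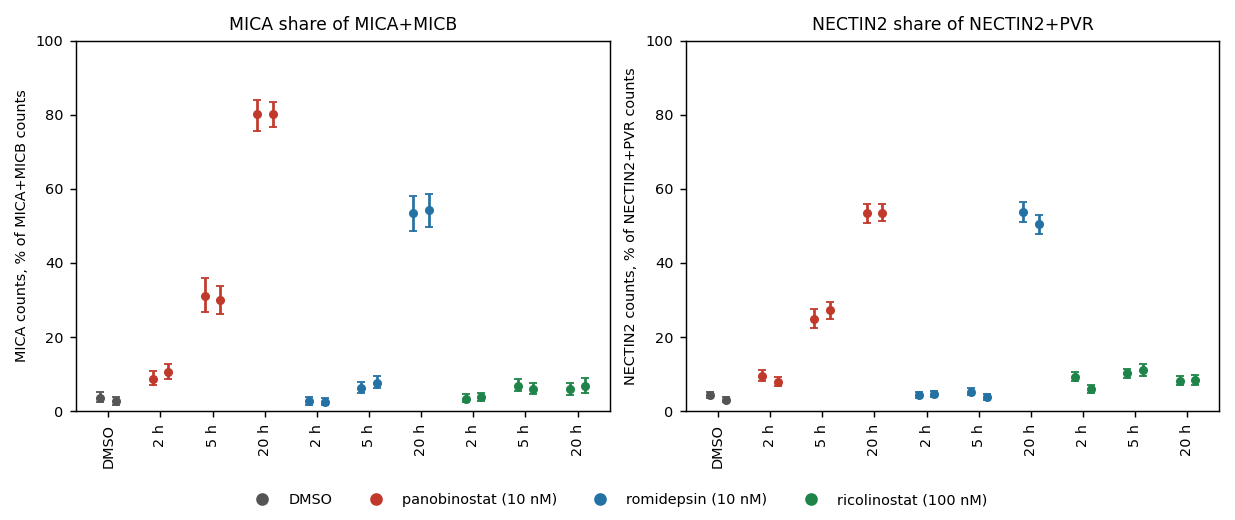
MICA counts as a percentage of MICA plus MICB counts (left) and NECTIN2 counts as a percentage of NECTIN2 plus PVR counts (right), for each of the 20 libraries with 95% exact binomial intervals. MICA reached 80.1% with panobinostat at 20 h from 3.14% in DMSO, and NECTIN2 53.5% from 3.67%.

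Among the ULBP and RAET1 genes, which lie together on chromosome 6 far from the MHC, ULBP1 and ULBP3 were measurable and ULBP2, RAET1E and RAET1G were near or at 0. ULBP1 (chr6:149964007-149973710, plus strand) was at 0.847 and 0.634 CPM in DMSO. With panobinostat it was at 0.519 and 0.690 CPM at 2 h, at 2.28 and 2.89 CPM at 5 h and at 5.6 and 8.09 CPM at 20 h. After -0.27 ± 0.44 at 2 h (adjusted p = 0.70), ULBP1 rose by 1.82 ± 0.37 at 5 h (adjusted p = 9.5e-06) and 3.21 ± 0.34 at 20 h (adjusted p = 5.5e-15). With romidepsin its 2 h libraries were spread, at 0.175 and 0.541 CPM, its 5 h libraries were at 0.789 and 1.34 CPM, and its 20 h libraries at 2.91 and 2.67 CPM. Of these the 20 h level was higher than DMSO, by 1.91 ± 0.36 (adjusted p = 1.5e-06), while the values at 2 and 5 h were -1.01 ± 0.49 (adjusted p = 0.23) and 0.51 ± 0.41 (adjusted p = 0.38). With ricolinostat ULBP1 fell at 2 h, to 0.262 and 0.159 CPM, by -1.80 ± 0.55 (adjusted p = 0.0061). That call was lost without DMSO replicate 1 (-1.60, adjusted p = 0.062) or without ricolinostat replicate 2 (-1.54, adjusted p = 0.085). At 5 and 20 h with ricolinostat it was at 0.846 and 0.749 CPM and at 0.599 and 0.680 CPM, with 0.12 ± 0.42 and -0.20 ± 0.44 (adjusted p = 0.90 and 0.80). The ULBP1 counts were low, and 7 of the 9 neighbouring pairs in its order of groups overlapped.

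ULBP3 (chr6:150063150-150069095, minus strand) was at 1.40 and 1.27 CPM in DMSO. It was at 1.70 and 1.69 CPM at 2 h, 2.91 and 2.64 CPM at 5 h and 5.87 and 6.31 CPM at 20 h with panobinostat. ULBP3 rose by 1.05 ± 0.30 at 5 h (adjusted p = 0.0014) and 2.19 ± 0.27 at 20 h (adjusted p = 3.3e-12), with 0.35 ± 0.31 at 2 h (adjusted p = 0.42). Romidepsin libraries were at 1.49 and 1.96 CPM, 1.70 and 1.90 CPM, and 4.81 and 4.78 CPM. The rise was 1.85 ± 0.27 at 20 h (adjusted p = 3.5e-09), after 0.38 ± 0.31 and 0.43 ± 0.31 (adjusted p = 0.57 and 0.33). Ricolinostat libraries were at 1.18 and 1.79 CPM, 3.15 and 2.11 CPM, and 2.18 and 2.13 CPM, of which the 5 h pair was higher than DMSO by 0.99 ± 0.29 (adjusted p = 0.0039). That call was lost without DMSO replicate 2 (0.88, adjusted p = 0.069) or without ricolinostat replicate 1 (0.55, adjusted p = 0.31). At 2 and 20 h the ULBP3 values were 0.17 ± 0.32 and 0.70 ± 0.30 (adjusted p = 0.77 and 0.069), and with library size alone ULBP3 was called at 20 h (0.80, adjusted p = 0.032). A few windows of 100 bases are identical between family members: 6.86% of those of ULBP3 and 1.15% of those of ULBP1 occur in RAET1K, and 11.8% of those of ULBP2 occur in RAET1L, so that these genes can share reads.

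ULBP2 had 5 counts over all 20 libraries, 2 and 3 of them at 20 h with panobinostat. These were 0.0783 and 0.0902 CPM, and 0 counts in DMSO allow up to 0.0595 CPM. RAET1E had 10 counts in all, 2 of them in each panobinostat library at 20 h and 0 in DMSO. RAET1G had 4 counts in all, 2 of them in DMSO replicate 2. None of these 3 genes could be tested, and no fold is given on so few counts. RAET1L, a close relative outside the 10, had 0 counts in each of the 20 libraries.

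The DNAM-1 ligands PVR and NECTIN2 also moved apart. PVR (ENSG00000073008, chr19:44643798-44663583) and NECTIN2 (ENSG00000130202, chr19:44846175-44889228) lie on the plus strand of chromosome 19. Their upstream sequences are shown since both belong to the nectin family and lie near each other while their mRNAs diverged. These RefSeq stretches (GRCh38.p14, plus strand) are chr19:44643660-44643797 for PVR and chr19:44846047-44846174 for NECTIN2, ended before the first GENCODE 29 exon of each gene, with the GC box in capitals.
PVR: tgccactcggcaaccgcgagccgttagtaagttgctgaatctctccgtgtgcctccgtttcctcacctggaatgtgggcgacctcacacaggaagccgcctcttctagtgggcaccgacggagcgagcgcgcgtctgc
NECTIN2: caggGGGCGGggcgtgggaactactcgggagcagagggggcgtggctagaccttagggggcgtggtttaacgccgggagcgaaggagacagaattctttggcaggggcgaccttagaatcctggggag
NECTIN2 held 3 GC boxes within 250 bases before its RefSeq start, 1 of them in the printed stretch, and the cyclic AMP response element TGACGTCA at position 2 after the start. That element occurred in 1.85% of the 35116 promoters. PVR held no GC box in its promoter entry, and TGGGAA, the Ikaros core, on the minus strand at position 39 after the start. TGGGAA occurred in 24.0% of promoters and was also in NECTIN2, at position -236.

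PVR was the most abundant ligand gene in DMSO, at 103 and 96.5 CPM. With panobinostat it was at 69.8 and 70.1 CPM at 2 h, 48.8 and 45.5 CPM at 5 h and 27.9 and 28.9 CPM at 20 h. Each time point lay below the one before without overlap, and PVR fell against DMSO by -0.51 ± 0.06, -1.09 ± 0.06 and -1.81 ± 0.07 (adjusted p = 3.4e-12, 1.5e-29 and 9.9e-47). With romidepsin the libraries were at 95.2 and 95.9 CPM at 2 h, at 79.4 and 84.0 CPM at 5 h, and at 25.7 and 28.4 CPM at 20 h. PVR fell at 5 h by -0.29 ± 0.06 (adjusted p = 4.6e-05) and at 20 h by -1.88 ± 0.07 (adjusted p = 4.7e-47), after -0.06 ± 0.06 at 2 h (adjusted p = 0.64). The 5 h value was -0.16 (adjusted p = 0.028) with library size alone. With ricolinostat PVR was at 73.7 and 84.3 CPM, 72.1 and 66.6 CPM, and 72.9 and 72.5 CPM at the 3 times. These were falls of -0.34, -0.52 and -0.46, each ± 0.06 (adjusted p = 1.7e-06, 2.5e-12 and 5.7e-10). PVR was thus lower than DMSO in 8 of the 9 comparisons, the exception being romidepsin at 2 h.

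NECTIN2 was at 4.57 and 3.09 CPM in DMSO. With panobinostat it was at 7.31 and 5.98 CPM at 2 h, 16.2 and 17.0 CPM at 5 h and 32.1 and 33.4 CPM at 20 h. NECTIN2 rose by 0.80 ± 0.17 (adjusted p = 5.1e-05), 2.13 ± 0.15 (1.8e-23) and 3.11 ± 0.14 (1.4e-37), and the first of these was 0.51 (adjusted p = 0.044) without DMSO replicate 2. With romidepsin it was among the DMSO values early, at 4.25 and 4.54 CPM at 2 h and 4.42 and 3.25 CPM at 5 h, and at 29.9 and 28.9 CPM at 20 h. Its values were 0.21 ± 0.18 (adjusted p = 0.60), 0.02 ± 0.19 (0.97) and 2.95 ± 0.15 (2.4e-35). With ricolinostat it was at 7.56 and 5.32 CPM, 8.15 and 8.19 CPM, and 6.51 and 6.67 CPM, all above both DMSO libraries. NECTIN2 rose there by 0.75 ± 0.17, 1.10 ± 0.17 and 0.79 ± 0.17 (adjusted p = 0.00018, 1.9e-08 and 9.5e-05). The 2 h call was lost without DMSO replicate 2 (0.47, adjusted p = 0.090) or ricolinostat replicate 1 (0.40, adjusted p = 0.17), and the 20 h call without DMSO replicate 2 (0.52, adjusted p = 0.054). The share of NECTIN2 in NECTIN2 and PVR counts was 3.67% ± 0.803 in DMSO, then 8.67% ± 1.15, 26.1% ± 1.66 and 53.5% ± 0.116 with panobinostat at 2, 5 and 20 h. With romidepsin it was 4.4% ± 0.173, 4.50% ± 1.10 and 52.1% ± 2.31, and with ricolinostat 7.62% ± 2.38, 10.6% ± 0.561 and 8.30% ± 0.156.

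NCR3LG1 (ENSG00000188211, chr11:17351726-17377341, plus strand), which encodes the NKp30 ligand B7-H6, was scarce at 0.508 and 0.485 CPM in DMSO. With panobinostat it was at 0.755 and 1.23 CPM, 1.42 and 2.52 CPM, and 2.07 and 1.23 CPM at 2, 5 and 20 h. It rose by 2.00 ± 0.46 at 5 h (adjusted p = 8e-05) and 1.71 ± 0.45 at 20 h (adjusted p = 0.0005), with 1.01 ± 0.48 at 2 h (adjusted p = 0.092). With romidepsin NCR3LG1 was at 0.789 and 0.832 CPM, 1.38 and 1.07 CPM, and 1.48 and 2.08 CPM. The 20 h rise was 1.84 ± 0.45 (adjusted p = 0.00022), and the 5 h rise of 1.30 ± 0.47 (adjusted p = 0.027) was lost without either DMSO library (1.32 and 1.25, adjusted p = 0.10 and 0.14), without romidepsin replicate 1 (1.08, adjusted p = 0.19), with no filter on low counts (1.29, adjusted p = 0.067) and with DESeq2 (1.27, adjusted p = 0.053). With ricolinostat the libraries were at 0.437 and 0.159 CPM, 0.538 and 0.562 CPM, and 0.942 and 0.725 CPM, and none of the 3 times passed (-0.75 ± 0.59, 0.15 ± 0.53 and 0.75 ± 0.50; adjusted p = 0.38, 0.90 and 0.28).

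Levels of different genes were compared per kilobase of annotated exon. In DMSO PVR led at a mean of 28.4 CPM per kb, followed by MICB at 12.7, ULBP3 at 1.35, NECTIN2 at 1.02, MICA at 0.477, ULBP1 at 0.236 and NCR3LG1 at 0.0771 CPM per kb. With panobinostat at 20 h the levels were closer together: NECTIN2 8.74, PVR 8.08, ULBP3 6.17, MICA 5.18, ULBP1 2.18, MICB 1.10 and NCR3LG1 0.257 CPM per kb. With romidepsin at 20 h they were 7.85 for NECTIN2, 7.69 for PVR, 4.86 for ULBP3, 4.32 for MICA, 3.15 for MICB, 0.888 for ULBP1 and 0.276 for NCR3LG1. In both, PVR and MICB no longer stood far above the rest.

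Per kilobase of annotated exon, the summed level of the 7 NKG2D ligand genes at 20 h lay close to that of DMSO. The genes that made it up differed. The sum was 14.1 and 15.4 CPM per kb in DMSO, 13.6 and 15.8 with panobinostat, 13.2 and 13.2 with romidepsin, and 14.5 and 13.6 with ricolinostat at 20 h. The panobinostat libraries thus spanned the DMSO values, and both romidepsin libraries lay below them. MICB made up 85.8% ± 2.09 (SD, n = 2) of the sum in DMSO and 7.45% ± 0.0538 with panobinostat, where ULBP3 made up 42.0% ± 2.22, MICA 35.2% ± 0.0555 and ULBP1 14.7% ± 2.28. With romidepsin at 20 h ULBP3 made up 36.7% ± 0.145, MICA 32.6% ± 0.562 and MICB 23.8% ± 0.139, and with ricolinostat MICB still made up 77.0% ± 1.22. With library size alone the sum was 13.2 and 14.4 in DMSO, 15.8 and 18.1 with panobinostat and 14.5 and 14.6 with romidepsin, so that its place relative to DMSO turns on the scaling. The sum and the shares also turn on exon length: 988 bases for ULBP3, 2386 for MICA, 2798 for MICB and 3142 for ULBP1. In CPM not divided by length, MICB went from a mean of 35.4 in DMSO to 3.07 with panobinostat at 20 h. MICA, ULBP1 and ULBP3 went from 1.14, 0.740 and 1.33 to 12.4, 6.84 and 6.09 CPM. By those TMM-scaled levels the total was lower than in DMSO, and MICA rather than ULBP3 was largest. At 2 h the sum per kb was 17.1 and 15.8 with panobinostat, 18.4 and 20.6 with romidepsin and 19.3 and 21.6 with ricolinostat, above both DMSO libraries under either scaling. At 5 h it was 12.7 and 12.8 with panobinostat, below both, 17.8 and 20.8 with romidepsin and 17.8 and 19.6 with ricolinostat, above both, and with library size alone the panobinostat values were 12.9 and 13.2, beside 13.2 and 14.4 in DMSO. The summed level of PVR and NECTIN2 was 30.6 and 28.2 CPM per kb in DMSO, 16.5 and 17.1 with panobinostat, 15.3 and 15.8 with romidepsin and 22.4 and 22.4 with ricolinostat at 20 h. These sums describe transcripts only, and no test was made of them.

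Panobinostat, a hydroxamic acid, and romidepsin, a cyclic depsipeptide, were compared directly as the 1 pair at a matched dose. At 2 h MICA and NECTIN2 were higher with panobinostat, by 1.64 ± 0.26 (adjusted p = 4.5e-08) and 0.59 ± 0.17 (adjusted p = 0.003), and MICB and PVR lower, by -0.41 ± 0.08 (adjusted p = 2e-05) and -0.45 ± 0.06 (adjusted p = 5.9e-10). These are 2 genes higher and 2 lower, where 19.8% and 17.3% of all genes were. The NECTIN2 call was lost without panobinostat replicate 1 at 2 h (0.44, adjusted p = 0.090). At 5 h 3 genes were higher and 2 lower, against 25.9% and 24.8% of all genes: MICA by 1.17 ± 0.21 (adjusted p = 7.5e-07), ULBP1 by 1.30 ± 0.35 (adjusted p = 0.00098), NECTIN2 by 2.10 ± 0.16 (adjusted p = 9.2e-23), MICB by -1.38 ± 0.09 (adjusted p = 9.4e-25) and PVR by -0.80 ± 0.06 (adjusted p = 2.6e-20). The ULBP1 call was lost without romidepsin replicate 1 at 5 h (0.94, adjusted p = 0.071). At 20 h 1 gene was higher and 1 lower, against 18.3% and 23.4%: ULBP1 by 1.30 ± 0.28 (adjusted p = 6.4e-05) and MICB by -1.51 ± 0.14 (adjusted p = 2.5e-16). For the other 5 genes at 20 h the 95% intervals of the difference were -0.07 to 0.61 for MICA, -0.10 to 0.80 for ULBP3, -0.07 to 0.21 for PVR, -0.07 to 0.38 for NECTIN2 and -0.88 to 0.63 for NCR3LG1. For PVR and NECTIN2 these intervals exclude a difference of 1.5-fold in either direction, while for MICA, ULBP3 and NCR3LG1 they do not. The pairs that did not pass earlier were ULBP1 at 2 h (-0.26 to 1.75), ULBP3 at 2 and 5 h (-0.62 to 0.56 and 0.06 to 1.18) and NCR3LG1 at 2 and 5 h (-0.59 to 1.2 and -0.10 to 1.5). A p that misses the threshold does not show that the inhibitors act alike.

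**Figure D4:**
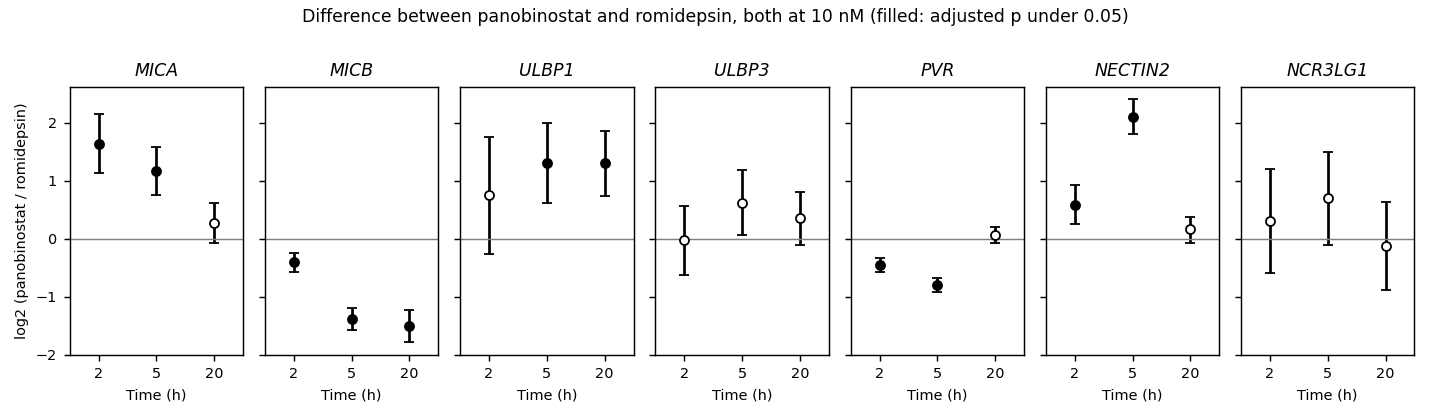
log2 ratio of panobinostat to romidepsin, both at 10 nM, at 2, 5 and 20 h for each tested ligand gene, with 95% intervals from the standard error; filled points have an adjusted p under 0.05. For NECTIN2 the ratio is 2.10 at 5 h and 0.16 at 20 h, while for MICB it is -1.51 at 20 h.

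The difference between these inhibitors was itself compared between 2 and 20 h, and 3 of the 7 genes changed, against 36.4% of all genes. It moved by -1.38 ± 0.31 for MICA (adjusted p = 0.00013), by -1.10 ± 0.17 for MICB (adjusted p = 2.5e-08) and by 0.52 ± 0.09 for PVR (adjusted p = 2.3e-06). The panobinostat excess of MICA at 2 h was thus smaller at 20 h, and so was the panobinostat deficit of PVR, while that of MICB was larger. For NECTIN2, ULBP1, ULBP3 and NCR3LG1 the values were -0.43 ± 0.20, 0.55 ± 0.61, 0.38 ± 0.38 and -0.43 ± 0.60 (adjusted p = 0.093, 0.54, 0.50 and 0.64). Of all genes called in this comparison 36.8% had a positive value, and 47.3% with library size alone.

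Successive times of 1 inhibitor were also compared, without DMSO. With panobinostat 7 of the 7 genes changed between 2 and 5 h and 6 between 5 and 20 h, where 41.9% and 56.3% of all genes did. The change of MICB was -2.45 ± 0.13 in the later interval (adjusted p = 2e-31) after -1.09 ± 0.10 in the earlier (adjusted p = 4.8e-18), while for ULBP1 the earlier and later values were 2.08 ± 0.38 (adjusted p = 2.2e-06) and 1.40 ± 0.29 (adjusted p = 2e-05). Between 2 and 5 h the calls of ULBP3 (0.71 ± 0.29, adjusted p = 0.040) and NCR3LG1 (0.99 ± 0.42, adjusted p = 0.046) were near the threshold. The first was lost without any 1 of the 4 libraries (0.63 to 0.76). The second was lost without panobinostat replicate 1 at 2 h or replicate 2 at 5 h (0.70 and 0.49). Both calls were also lost with no filter on low counts (0.69 and 0.98, adjusted p = 0.12 for each). The same was so with DESeq2 (0.74 and 1.03, adjusted p = 0.054 and 0.088). With romidepsin 3 genes changed between 2 and 5 h and 6 between 5 and 20 h, against 20.3% and 62.8% of all genes. NECTIN2 rose in the later interval, by 2.93 ± 0.15 (adjusted p = 1.2e-34) after -0.19 ± 0.18 (adjusted p = 0.57), and PVR and MICB fell there by -1.59 ± 0.07 and -2.32 ± 0.10 (adjusted p = 1.9e-40 and 8.4e-39). In the earlier interval ULBP1 rose by 1.53 ± 0.47 (adjusted p = 0.011), a call lost without romidepsin replicate 1 at 2 h or replicate 2 at 5 h (0.95 and 1.11), and at 2.56 without replicate 2 at 2 h. PVR fell by -0.23 ± 0.06 (adjusted p = 0.0027), which was lost without romidepsin replicate 1 at 5 h (-0.19) or with library size alone (-0.15). With ricolinostat 4 genes changed between 2 and 5 h and 1 between 5 and 20 h, against 15.3% and 37.9% of all genes. MICB fell in both intervals, by -0.31 ± 0.08 (adjusted p = 0.0036) and -0.43 ± 0.09 (adjusted p = 1.7e-05), the latter at -0.26 without ricolinostat replicate 2 at 5 h. Each of the 4 earlier calls, of ULBP1, ULBP3, MICB and PVR, was lost when 1 ricolinostat library was left out. Without replicate 2 at 2 h 1 of them, ULBP3, stayed called, and without replicate 1 at 5 h PVR did. With library size alone in place of TMM, the share of called genes that were higher moved from 47.2% to 62.7% and from 48.8% to 60.6% for the earlier and later panobinostat intervals, and from 41.4% to 65.0% and from 43.8% to 60.6% for the earlier romidepsin and ricolinostat intervals.

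Other ligands of activating NK receptors and co-receptors numbered 17, of which 12 were tested. At 20 h 4 rose and 8 fell with panobinostat (median -1.19), 4 and 8 with romidepsin (median -0.79) and 0 and 5 with ricolinostat (median -0.16). For this and the next 4 lists, the shares of all genes higher and lower were those given above. They were 40.8% and 32.3%, 38.6% and 29.9%, and 14.7% and 16.4%, and the medians over all genes were 0.25, 0.22 and 0.03. Nothing particular to a list was tested. Some listed genes were too low in DMSO for the filter and were tested only through inhibitor groups where they were higher. Among them were TNFSF9 and CD274 with 14 DMSO counts each, NECTIN4 with 6, CD70 with 1 and LGALS9 with 0. A fall of such genes could hardly have been called, which limits what the counts of genes higher show. TNFSF9, the 4-1BB ligand, rose from a mean of 0.266 CPM in DMSO to 61.7 CPM with panobinostat and 29.8 CPM with romidepsin, by 7.77 ± 0.22 (adjusted p = 7.4e-54) and 6.72 ± 0.24 (adjusted p = 3e-46). SLAMF7, the self-ligand on myeloma and NK cells that elotuzumab binds, fell from 367 CPM to 6.34 and 23.6 CPM, by -5.83 ± 0.08 and -3.97 ± 0.07 (adjusted p = 2.2e-35 and 2.4e-32). CD48, the ligand of the NK receptor 2B4, fell from 237 CPM to 6.72 and 38.8 CPM, and CLEC2B, the ligand of NKp80, from 61.7 CPM to 0.830 and 5.04 CPM. With ricolinostat SLAMF7 fell by -0.81 ± 0.06, CD48 by -0.21 ± 0.05 and CLEC2B by -0.22 ± 0.09 (adjusted p = 8.6e-14, 0.00012 and 0.040), and TNFSF9 was at 0.66 ± 0.54 (adjusted p = 0.39).

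The nectins and nectin-like adhesion genes, relatives of PVR and NECTIN2, numbered 8, with 3 of 6 tested genes higher and 3 lower at 20 h with panobinostat, 4 and 1 with romidepsin and 2 and 1 with ricolinostat. CADM2 rose from 0.839 to 18.2 and 20.0 CPM and CADM4 from 4.52 to 24.1 and 20.7 CPM with panobinostat and romidepsin. CADM1, a ligand of CRTAM on NK and T cells, fell from 200 to 122 and 136 CPM. NECTIN3, which binds other nectins and PVR, was at 21.4 CPM in DMSO, 18.1 with panobinostat (-0.25 ± 0.10, adjusted p = 0.017), 33.9 with romidepsin (0.67 ± 0.09, adjusted p = 3.1e-10) and 27.1 with ricolinostat (0.34 ± 0.09, adjusted p = 0.0023).

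Genes for ligands of inhibitory NK receptors, mainly MHC class I, numbered 17, of which 14 were tested. At 20 h 4 rose and 9 fell with panobinostat (median -0.83), 6 and 5 with romidepsin (median 0.01) and 4 and 2 with ricolinostat (median 0.21). HLA-F rose with each, by 1.38 ± 0.16, 1.68 ± 0.16 and 0.97 ± 0.17 (adjusted p = 3.1e-13, 2.8e-17 and 7.1e-07). CLEC2D, the ligand of the inhibitory receptor KLRB1, fell by -1.79 ± 0.13 and -0.98 ± 0.12 with panobinostat and romidepsin and rose by 0.50 ± 0.11 with ricolinostat (adjusted p = 2.7e-22, 2.8e-11 and 0.00017). Of the cadherins that bind KLRG1, CDH2 fell by -2.15 ± 0.06 and -0.67 ± 0.06, while CDH4 rose by 3.07 ± 0.36 and 2.68 ± 0.37. HLA-E, the NKG2A ligand, and B2M, the shared light chain, were picked out after their values were seen: HLA-E went from 484 CPM in DMSO to 333 with panobinostat and 530 with romidepsin, and B2M from 374 to 256 and 426 CPM.

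Genes that take part in shedding NKG2D ligands numbered 12, with 5 of 10 tested higher and 4 lower at 20 h with panobinostat, 5 and 4 with romidepsin and 1 and 3 with ricolinostat, and medians of 0.12, 0.39 and -0.15. RHBDF1, a regulator of the protease ADAM17, rose from 0.440 to 5.38 and 2.45 CPM with panobinostat and romidepsin, and its paralogue RHBDF2 fell from 55.1 to 28.7 and 24.3 CPM. PDIA6, a disulfide isomerase needed for MICA shedding, fell from 276 to 105 and 123 CPM, and TIMP1, an inhibitor of metalloproteases, from 88.9 to 39.6 and 58.2 CPM. ADAM17 itself, named after its values were seen, rose from 46.9 to 89.8 and 72.0 CPM.

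All 23 listed regulators of NKG2D and DNAM-1 ligand genes were tested, and 6 rose and 17 fell with panobinostat and with romidepsin at 20 h, while none rose and 14 fell with ricolinostat, with medians of -0.73, -0.52 and -0.20. MYC fell from 440 to 9.53 CPM with panobinostat and 24.0 CPM with romidepsin, by -5.52 ± 0.06 and -4.20 ± 0.05 (adjusted p = 1.6e-92 and 1.5e-85). IKZF1 and IKZF3, the Ikaros factors that lenalidomide depletes in myeloma, fell from 241 to 8.50 and 33.5 CPM and from 128 to 6.82 and 27.8 CPM. XBP1, a factor of the secretory stress response, fell from 919 to 71.8 and 148 CPM. With ricolinostat MYC was at 382 CPM (-0.20 ± 0.04, adjusted p = 5.9e-05) and IKZF1 at 253 CPM (0.07 ± 0.05, adjusted p = 0.27).

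**Figure D5:**
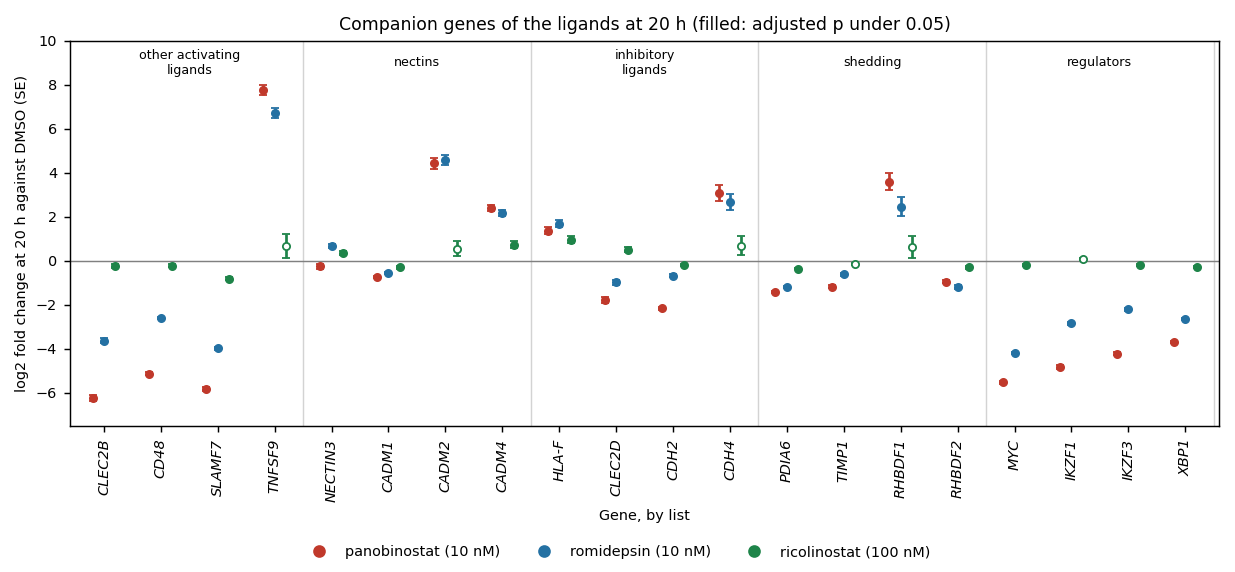
log2 fold change at 20 h against DMSO (± SE) of the 4 named genes of each of the 5 companion lists, coloured by inhibitor; filled points have an adjusted p under 0.05. TNFSF9 stands highest at 7.77 and CLEC2B lowest at -6.23, both with panobinostat.

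The patterns of 6 ligand genes were set beside those of 10424 genes by the Pearson correlation of mean log2 (CPM + 1) over the 10 groups, which share the DMSO libraries and a split between 20 h and earlier. The genes nearest to MICA were BPNT1 (0.99), TMCC2 (0.987) and KIF3A (0.983), and those nearest to MICB were TRAPPC13 (0.998), MAP4K5 (0.995) and AGO3 (0.994). The highest values were 0.987 for ULBP1, with ITPR1 and IL17RC followed by BIK at 0.982, and 0.985 for ULBP3, with ZFAND6. For PVR the nearest was KAT2A (0.997), and for NECTIN2 HABP4 (0.992). Between the members, MICA was at -0.88 with MICB and -0.955 with PVR, and at 0.908 with ULBP1 and 0.925 with NECTIN2. NCR3LG1 did not reach 5 CPM in a group and was left out.

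The nearest tested protein-coding genes on either side of each cluster were read in the same way. Of these, LRP11 and CEACAM20 had 6 and 0 counts in DMSO and passed the filter on low counts only through inhibitor groups. Their choice as nearest tested genes thus depended on their being higher there, and a fall could hardly have been called. Beside MICA and MICB, HLA-B stood at -0.91 ± 0.05 with panobinostat, -0.01 ± 0.04 with romidepsin and 0.01 ± 0.04 with ricolinostat at 20 h (adjusted p = 1.5e-35, 0.80 and 0.96), and DDX39B at -0.39 ± 0.06, -0.30 ± 0.07 and 0.03 ± 0.06 (adjusted p = 4e-07, 7.9e-05 and 0.84). PLEKHG1, 531 kb beyond ULBP3, was lower with panobinostat and romidepsin, at -2.21 ± 0.18 and -1.19 ± 0.16, and higher with ricolinostat, at 0.49 ± 0.15 (adjusted p = 4.7e-21, 3.2e-10 and 0.0052). LRP11, on the near side of RAET1E, went from 6 counts in DMSO to 33 and 37 with panobinostat and romidepsin, at 2.19 ± 0.96 and 2.62 ± 0.95 (adjusted p = 0.034 and 0.011), and had 0 with ricolinostat (adjusted p = 0.10). CEACAM20, 114 kb before PVR, had 0 counts in DMSO and 1770 with panobinostat and 280 with romidepsin at 20 h, at least 506-fold and 92.9-fold higher than the level of 3 counts over the DMSO libraries, and 0 with ricolinostat. TOMM40, 1.34 kb after NECTIN2, fell by -1.17 ± 0.04, -1.93 ± 0.05 and -0.59 ± 0.04 with the 3 inhibitors (adjusted p = 1.8e-44, 7e-61 and 1.2e-21). Beside NCR3LG1, NUCB2 fell by -0.95, -0.24 and -0.34, each ± 0.06, with panobinostat, romidepsin and ricolinostat (adjusted p = 6.3e-28, 0.00012 and 1.2e-06), and KCNJ11 was at 0.13 ± 0.19, 0.80 ± 0.19 and 0.03 ± 0.20 (adjusted p = 0.56, 9.8e-05 and 0.97).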

How the data were processed

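Poly(A) RNA of OPM2 cells was sequenced from strand-specific, paired-end libraries, per the labels' protocols. The authors deposited raw counts per Ensembl gene, and the submitters' processing notes name GRCh38, featureCounts, SAMtools and HISAT2. Not given in the sources used here are the strand setting, the annotation release and whether reads or pairs were counted. Of 78932 identifiers, 61481 matched the name table and 57356 GENCODE 29, which gave positions and exon lengths.

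Counts were tested with edgeR 4.0.16 in R 4.3.3 (robust quasi-likelihood, TMM, filterByExpr with a minimum count of 10). All 20 libraries entered 1 fit with 1 term per group, and p-values were adjusted by Benjamini-Hochberg over 20957 genes in each comparison. SE is the log2 fold change divided by the square root of F, and intervals are normal 95% intervals. Counting intervals and the floor of 3 counts cover counting error only. The labels call the replicates independent, and give the batch as unknown. The alternatives were library size alone, DESeq2 size factors, DESeq2 1.42.0, no filter on low counts, only the groups compared, a replicate block and each library left out. Across the 45 pairs of groups the deviations of same-numbered replicates correlated between -0.0603 and 0.0579, so the numbers were not taken as pairs. The code was tested on simulated data.

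Promoters are RefSeq entries (GRCh38.p14) of 250 bases before and 50 after the start, matched for all 10 genes, and pairs were aligned with biopython 1.88. Both strands were searched for the heat shock element core GAANNTTC, the GC box GGGCGG, the E-box CACGTG, the cyclic AMP response element TGACGTCA, the ATF4 and CHOP composite element TGATGNAA, the E2F element as TTTGGCGC or as TTTCGCGC, and the Ikaros core TGGGAA.

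The genes, companion lists and tests were chosen with earlier results of these data known. Named companions are up to 4 genes a list with the largest change at 20 h among those that passed and reached 5 CPM in a group. Named similar genes are the 3 protein-coding genes most correlated with each ligand gene.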

Additional observations from a re-analysis of the deposited data

Results flagged for a closer look

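The difference between panobinostat and romidepsin, both at 10 nM, was not the same at 20 h as at 2 h for 3 ligand genes, by the edgeR interaction test over all genes. For MICA it moved by -1.38 ± 0.31 (adjusted p = 0.00013), from 1.64 at 2 h to 0.27 at 20 h. For MICB it moved by -1.10 ± 0.17 (adjusted p = 2.5e-08), from -0.41 to -1.51, and for PVR by 0.52 ± 0.09 (adjusted p = 2.3e-06), from -0.45 to 0.07. The 3 genes were called in each of the 8 fits that left out 1 of the libraries compared, and 36.4% of all genes were called in this comparison.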

How the results depend on the processing

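Over all ligand genes, comparisons and alternatives, 1304 values stayed on their side of the threshold, 49 lost the call, 5 gained one and none changed direction while called. The counts at 20 h with panobinostat and with romidepsin were 5 higher and 2 lower in each fit that left out 1 library. The count lower with ricolinostat at 20 h was 1 in place of 2 with library size only and with the DESeq2 Wald test. With 1 library left out, where the lone remaining library of a group is assumed to vary like the other groups, the counts higher ran from 1 to 2 with romidepsin at 5 h, 1 to 2 with ricolinostat at 2 h, 2 to 3 at 5 h and 0 to 2 at 20 h. The counts lower with ricolinostat ran from 1 to 2 at 2 h, and again from 1 to 2 after 20 h. Between panobinostat and romidepsin the counts higher ran from 1 to 2 at 2 h and 2 to 3 at 5 h. The counts changed between 2 and 5 h ran from 5 to 6 with panobinostat, 2 to 3 with romidepsin and 1 to 4 with ricolinostat, and between 5 and 20 h from 1 to 2 with ricolinostat.

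The replicate block changed 2 calls: MICB with ricolinostat at 5 h was called (0.20, adjusted p = 0.024), as it was with library size only (0.24, adjusted p = 0.024), and NCR3LG1 between 2 and 5 h with panobinostat was not (0.99, adjusted p = 0.052). Of all genes, 1711 were called with romidepsin at 2 h, and 991, 1041 and 933 without DMSO replicate 1, DMSO replicate 2 or romidepsin replicate 1. Between 2 and 5 h, 4253 were called with romidepsin, and 2714 and 2780 without replicate 2 at 2 h or at 5 h, and 3199 with ricolinostat, and 1830 and 2005 without replicate 1 or 2 at 2 h. Depth limits ULBP2, RAET1E and RAET1G, which had 10 counts or fewer over all libraries, and leaves wide errors for NCR3LG1 and ULBP1. The causes of these shifts were not tested.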
